A study of Mus musculus with 12 samples.

Results

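The circadian clock genes described here are Arntl, Per1, Per2, Per3, Cry1, Cry2, Ciart, Nr1d1, Nr1d2 and Dbp, which were looked up by symbol in a table of raw counts of hippocampal RNA. All 10 were among the 24421 genes of the table, and all 10 were among the 13065 genes that passed the filter on low counts. The libraries came from mice 2 months of age, all of which had been injected with BrdU, an analogue of thymidine taken up during DNA synthesis. There were 4 genotypes, each with 3 libraries. They are named WT for wild type, 5xFAD, p75NTRko and, for the combined genotype, 5xFAD/p75NTRko. The 5xFAD line is a mouse model of Alzheimer's disease whose human transgenes are driven by the neuronal Thy1 promoter. The label p75NTRko stands for a knockout of Ngfr, which encodes the p75 neurotrophin receptor. The series asks about this receptor in hippocampal neurogenesis of the disease model, and clock genes were not its stated subject. The labels give a single batch date for all libraries and no time of day of dissection, light schedule or sex.

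The mammalian clock is a transcriptional feedback loop. Arntl (also called Bmal1) pairs with Clock, and the pair binds E-box sequences and activates the Per and Cry genes, Ciart, Nr1d1, Nr1d2 and Dbp; Per, Cry and Ciart proteins then repress the activator, while Nr1d1 and Nr1d2 (REV-ERB alpha and beta) repress Arntl in opposition to the ROR receptors. As a consequence, Arntl RNA is known to peak at about the opposite time of day from Dbp, Nr1d1 and the Per genes, so that the level of Arntl set against its targets follows the phase of the clock in most tissues, the hippocampus among them.

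The promoter sequences of the members were examined for the elements through which this loop works. RefSeq promoter windows (GRCm38.p6, 300 bases each, from 250 bases before to 50 after a transcript start) were matched by symbol for 9 of the 10 members (all but Per2), with 11 windows in all. The following sequences are parts of the windows that held a searched element, given 5′ to 3′ in the direction of transcription with the element in capitals. They are cut: those of Ciart, Per1 and Cry1 run from 250 to 31 bases before the transcript start, that of Per3 from 250 to 51 bases before it, and that of Arntl is the 30 bases around its element. The canonical E-box CACGTG, which reads the same on both strands, is marked in the first 3, the D-box TTANGTAA, the element bound by Dbp and its relatives, in Per3, and the core TAGGTCA of the ROR element, bound by Nr1d1, Nr1d2 and the ROR receptors, in Arntl.
Ciart, chr3:95882259-95882478, minus strand: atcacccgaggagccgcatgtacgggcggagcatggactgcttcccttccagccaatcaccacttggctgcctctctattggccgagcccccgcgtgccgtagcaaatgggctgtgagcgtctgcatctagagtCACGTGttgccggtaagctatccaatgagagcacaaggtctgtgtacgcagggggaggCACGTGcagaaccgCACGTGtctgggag
Per1, chr11:69098699-69098918, plus strand: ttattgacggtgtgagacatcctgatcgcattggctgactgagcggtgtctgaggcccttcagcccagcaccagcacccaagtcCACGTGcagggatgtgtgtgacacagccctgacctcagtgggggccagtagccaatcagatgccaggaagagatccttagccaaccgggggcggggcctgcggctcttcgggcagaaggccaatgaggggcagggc
Cry1, chr10:85185085-85185304, minus strand: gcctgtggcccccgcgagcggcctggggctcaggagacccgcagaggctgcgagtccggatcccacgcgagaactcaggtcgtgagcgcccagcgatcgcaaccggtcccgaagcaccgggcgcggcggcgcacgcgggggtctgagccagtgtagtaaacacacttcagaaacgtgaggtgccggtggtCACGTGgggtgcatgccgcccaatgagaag
Per3, chr4:151044716-151044915, minus strand: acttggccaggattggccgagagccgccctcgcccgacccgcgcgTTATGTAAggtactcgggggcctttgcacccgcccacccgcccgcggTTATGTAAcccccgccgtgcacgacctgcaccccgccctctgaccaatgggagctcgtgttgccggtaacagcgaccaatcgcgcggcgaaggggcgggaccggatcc
Arntl, chr7:113207530-113207559, plus strand: aaggcagaaagTAGGTCAgggacggaggtg
Ciart had 3 E-boxes, 116, 58 and 44 bases before its transcript start. Per1 had 1 E-box at 166 bases before its start and Cry1 had 1 at 60 bases. Per3 had 2 D-boxes, at 205 and 158 bases before the start. The ROR core of Arntl lay 31 bases after the start of the second of its 2 windows, within an annotated exon of Arntl. Among all 32851 windows of the same length, 7.15% held the E-box, 2.32% the D-box and 2.61% the ROR core on either strand. The windows of Cry2, Nr1d1, Nr1d2 and Dbp held none of these letters, nor did any member's window hold the cAMP element TGACGTCA (1.79% of all windows) or the palindromic glucocorticoid response element (0.475%). A match describes letters in a window and shows no binding, and an element outside the window was not searched.

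Each library had 4316739 to 6683613 counts assigned to genes, and the members had 32 to 1986 counts per library. Reads come from the 3′ ends of transcripts, so levels are given as CPM (counts scaled to library size, adjusted by the TMM method) without a length term. Ngfr ran against its label: it was at 5.95 to 10.5 CPM in the 6 libraries labelled p75NTRko or 5xFAD/p75NTRko and at 0.166 to 1.95 CPM in the other 6, so those genotypes are written only as labelled, and any direction drawn for them rests on the labels. Thy1 was at 1596 to 4019 CPM in the 6 libraries labelled as transgene carriers and 688 to 940 CPM in the others. Xist, the RNA of the inactive X chromosome, was at 359.7 to 439 CPM in 7 libraries (all WT, all 5xFAD/p75NTRko and 1 p75NTRko). It was at 1.53 to 3.58 CPM in the other 5, and this split is called the Xist class. Summed RNA from the Y chromosome ran the opposite way, at 0.332 to 1.36 CPM in the 7 and 156 to 201 CPM in the 5. By these levels the 7 libraries were female and the 5 male. All WT libraries were thus female and all 5xFAD libraries male, so sex and genotype cannot be told apart in 5xFAD against WT. The summed level of 9 markers of hippocampal principal neurons was 865 to 1140 CPM in WT, 1249 to 1535 in 5xFAD, 1269 to 1418 in p75NTRko and 1077 to 1356 in 5xFAD/p75NTRko. Cabp7, also listed, was at 0 in all WT and 5xFAD/p75NTRko libraries and was not tested. Of 14 thalamus and habenula markers listed, Patj was not among the gene symbols counted. The summed level of the 12 tested was 378 to 624, 236 to 283, 213 to 259 and 175 to 738 CPM in the same order. That of 12 choroid plexus markers was 2426 to 5999, 324 to 1952, 4464 to 7319 and 182 to 7270 CPM, and that of 12 oligodendrocyte markers 4215 to 7277, 5489 to 7874, 6522 to 7899 and 4191 to 5440 CPM. The labels call the libraries biological replicates, and p-values measure the spread between these libraries. In bulk RNA, fewer cells that express a gene and less RNA per cell cannot be told apart.

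The highest of the members by mean over the 12 libraries was Nr1d2 at 229 CPM, followed by Cry2 at 65.9. Arntl (38.3), Per3 (38.1), Dbp (38.1), Per1 (35.0) and Per2 (32.7) came next, with library ranges that overlapped one another throughout. Nr1d1 (24.5), Cry1 (16.6) and Ciart (15.4) were lowest. The range between the highest and the lowest library was 4.84-fold for Ciart, 3.0-fold for Arntl and 1.66-fold to 2.41-fold for the other 8. Spread between libraries of a genotype, as the biological coefficient of variation, was 11.5% for Per3 to 24.7% for Ciart, against a median of 13.2% over all tested genes. The plot of levels by library shows every value.

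**Figure D1:**
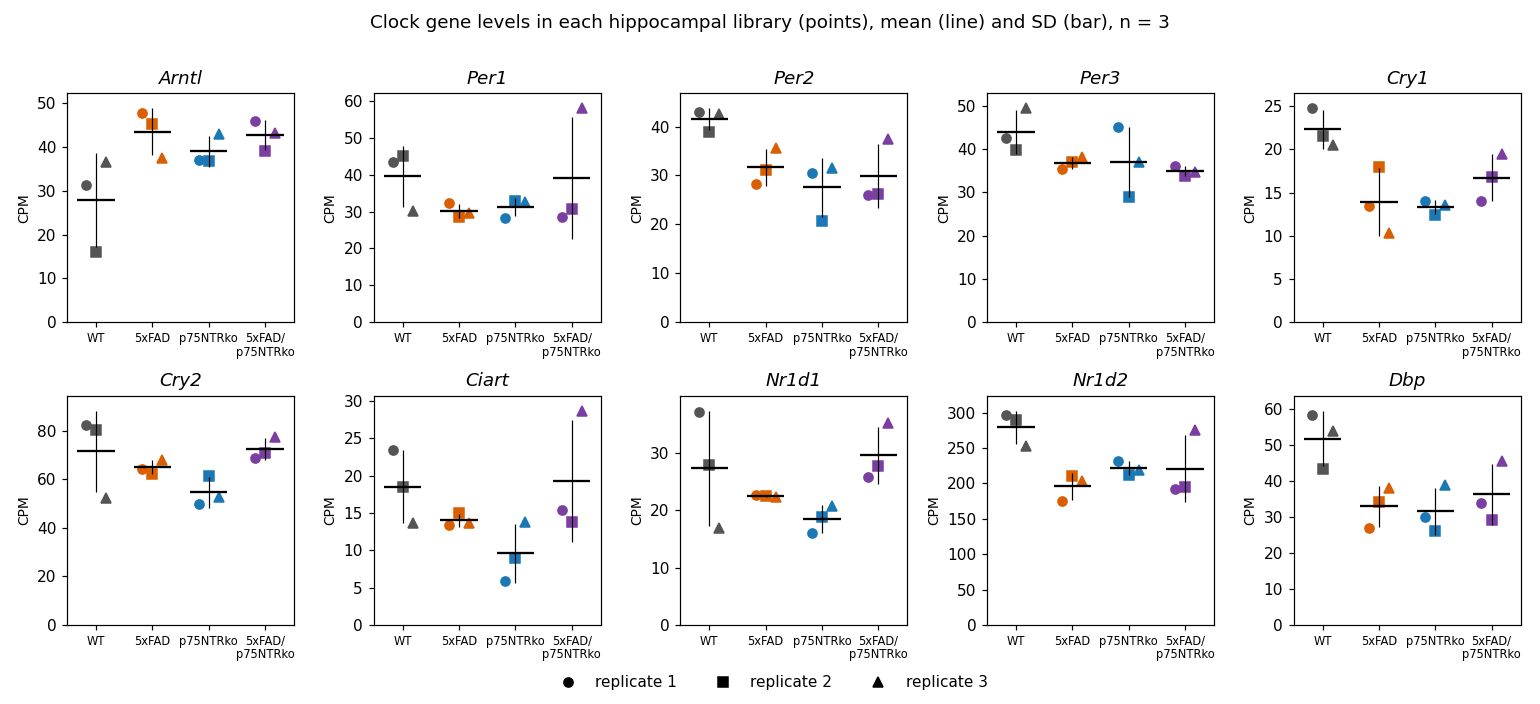
Levels of the 10 clock genes in each hippocampal library, in CPM on a linear axis from 0. Symbols are libraries (circle, square and triangle for replicates 1, 2 and 3), horizontal lines are genotype means and vertical bars are the SD over 3 libraries. Arntl is at 15.9 to 36.5 CPM in WT and above 36.5 in the other 9 libraries, and Per2 and Cry1 are higher in every WT library than in any other.

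Arntl, the activator of the loop, was lowest in WT. Its level was 31.4, 15.9 and 36.5 CPM in replicates 1, 2 and 3 of WT, 47.7, 45.3 and 37.4 in 5xFAD, 37.1, 36.8 and 43.0 in those labelled p75NTRko, and 46.0, 39.0 and 43.1 in 5xFAD/p75NTRko. Each of the other 9 libraries, from 36.8 CPM up, exceeded each WT library, although the margin over WT replicate 3 was narrow, and WT replicate 2 stood well below the other 2 WT libraries. The means were 27.9 CPM ± 10.7 in WT, 43.5 ± 5.36 in 5xFAD, 38.9 ± 3.49 in p75NTRko and 42.7 ± 3.51 in 5xFAD/p75NTRko (SD, n = 3 each). The log2 fold change against WT was 0.64 (SE 0.216, adjusted p = 0.261) in 5xFAD by the quasi-likelihood test of edgeR, adjusted by Benjamini-Hochberg over all 13065 genes, which is the test behind every adjusted p for a fold change below. It was 0.48 (SE 0.217, adjusted p = 0.422) in p75NTRko and 0.61 (SE 0.215, adjusted p = 0.469) in 5xFAD/p75NTRko. Without WT replicate 2 these values were 0.36, 0.20 and 0.33. The 3 comparisons share the WT libraries, so they are not separate evidence of a low WT level. How many of all tested genes had WT wholly above or below the other 9 libraries was not counted, here or for Per2 and Cry1 below. By mean, WT was lowest for 31.1% of all tested genes and highest for 30.5%.

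Among the repressors, Per2 and Cry1 were highest in WT. Per2, a period protein that carries the repressor complex, was at 43.0, 38.9 and 42.6 CPM in WT, 28.2, 31.2 and 35.6 in 5xFAD, 30.6, 20.7 and 31.5 in those labelled p75NTRko, and 26.0, 26.3 and 37.4 in 5xFAD/p75NTRko. All WT libraries lay above all 9 others, whose highest was the third 5xFAD/p75NTRko library. Its log2 fold change against WT was -0.40 (SE 0.171, adjusted p = 0.336) in 5xFAD, -0.58 (SE 0.173, adjusted p = 0.300) in p75NTRko and -0.47 (SE 0.171, adjusted p = 0.469) in 5xFAD/p75NTRko. Cry1, the cryptochrome that holds the activator repressed late in the cycle, was at 24.8, 21.6 and 20.6 CPM in WT, 13.4, 18.03 and 10.3 in 5xFAD, 14.1, 12.4 and 13.5 in those labelled p75NTRko, and 14.0, 16.8 and 19.5 in 5xFAD/p75NTRko. Again the WT libraries did not overlap with any of the others, and the third 5xFAD/p75NTRko library was nearest to them. The log2 fold change of Cry1 was -0.68 (SE 0.189, adjusted p = 0.213) in 5xFAD, -0.74 (SE 0.189, adjusted p = 0.238) in p75NTRko and -0.41 (SE 0.184, adjusted p = 0.491) in 5xFAD/p75NTRko.

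The remaining repressors showed smaller or less even differences. Per3, the period gene least needed for rhythm in mice, averaged 43.9 CPM ± 5.00 in WT, 36.8 ± 1.39 in 5xFAD, 37.0 ± 8.04 in p75NTRko and 34.8 ± 1.12 in 5xFAD/p75NTRko (SD, n = 3 each), with 1 of the 9 other libraries (p75NTRko replicate 1, 45.04) above the lowest WT library (39.8). Per1, a period gene that also responds quickly to light and to neuronal activity, was at 28.4 to 32.9 CPM in 8 of the 9 other libraries and at 58.0 in 5xFAD/p75NTRko replicate 3, while WT held 43.3, 45.1 and 30.03. That 5xFAD/p75NTRko library had the highest Per1 and Ciart of all 12 and also the highest level of immediate early genes: their mean log2 CPM over 22 genes was 6.05 there and 4.79 to 5.49 in the other 11, and the part of this in its clock gene values was not tested. Cry2, the second cryptochrome, was at 82.3, 80.3 and 52.4 CPM in WT, 64.5, 62.3 and 68.2 in 5xFAD, 49.7, 61.6 and 52.6 in those labelled p75NTRko, and 68.8, 71.0 and 77.5 in 5xFAD/p75NTRko, so the WT libraries spanned nearly the whole range. Ciart, which binds the activator and represses it, was at 23.5, 18.5 and 13.6 CPM in WT, 13.4, 15.02 and 13.7 in 5xFAD, 5.93, 8.97 and 13.8 in those labelled p75NTRko, and 15.3, 13.8 and 28.7 in 5xFAD/p75NTRko. It had the widest spread of the members, and its p75NTRko libraries included the lowest of all 12.

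The nuclear receptors Nr1d1 and Nr1d2, repressors of Arntl, did not follow the same order of genotypes. Nr1d2 was at 296.8, 289 and 253 CPM in WT, 175, 210.3 and 203 in 5xFAD, 232, 212 and 219 in those labelled p75NTRko, and 192, 195 and 276 in 5xFAD/p75NTRko. Only 5xFAD/p75NTRko replicate 3 among the 9 other libraries reached the WT range. Its log2 fold change of -0.51 in 5xFAD against WT (SE 0.130, adjusted p = 0.172) had the smallest p of any member in any of the 9 comparisons, and it was -0.34 (SE 0.130, adjusted p = 0.372) in p75NTRko and -0.34 (SE 0.130, adjusted p = 0.472) in 5xFAD/p75NTRko. Nr1d1 was at 37.1, 27.9 and 16.9 CPM in WT, 22.6, 22.5 and 22.3 in 5xFAD, 15.9, 18.9 and 20.8 in those labelled p75NTRko, and 25.8, 27.7 and 35.2 in 5xFAD/p75NTRko. The WT libraries enclosed nearly all of the others, the 5xFAD libraries were close together (SD 0.152 CPM, n = 3), and the p75NTRko libraries were all below those of 5xFAD and 5xFAD/p75NTRko.

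Dbp, a transcription factor of the PAR bZIP family and a direct output of the activator with one of the strongest daily rhythms in mouse tissues, was highest in WT. It was at 58.3, 43.2 and 53.8 CPM in WT, 26.8, 34.0 and 37.9 in 5xFAD, 29.8, 26.0 and 38.8 in those labelled p75NTRko, and 33.8, 29.2 and 45.6 in 5xFAD/p75NTRko. The 6 libraries of 5xFAD and p75NTRko were below every WT library, and 1 of the 9 others, 5xFAD/p75NTRko replicate 3, exceeded the lowest WT library. The log2 fold change against WT was -0.66 (SE 0.190, adjusted p = 0.229) in 5xFAD, -0.70 (SE 0.190, adjusted p = 0.258) in p75NTRko and -0.51 (SE 0.188, adjusted p = 0.469) in 5xFAD/p75NTRko. Where counting used no strand, reads in the exonic bases that Dbp shares with Sphk2 could not be told apart by gene. These are 539 bases, with Sphk2 on the opposite strand, and they include the 3′ end of Dbp. Sphk2 itself averaged 38.3 CPM ± 6.10 in WT, 35.8 ± 3.64 in 5xFAD, 41.9 ± 3.07 in p75NTRko and 34.9 ± 3.96 in 5xFAD/p75NTRko (SD, n = 3 each). The part of this overlap in the counts of Dbp was not tested. Opposite-strand exons also overlap Cry2 (295 bases, D930015M05Rik), Nr1d1 (263 bases, Thra) and Arntl (33 bases, Gm45355), none of them at the 3′ end of the member, and the use of strand in counting is not given in the sources used here.

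The relation between Arntl and its output Dbp within a library, which does not depend on the scaling of libraries, separated WT from the rest. The ratio of Arntl to Dbp counts was 0.538, 0.368 and 0.679 in WT, 1.78, 1.33 and 0.989 in 5xFAD, 1.24, 1.42 and 1.11 in those labelled p75NTRko, and 1.36, 1.33 and 0.946 in 5xFAD/p75NTRko. Dbp exceeded Arntl in all 3 WT libraries, and every other library had a higher ratio than every WT library, with replicate 3 of 5xFAD and of 5xFAD/p75NTRko closest to parity. Against Nr1d1 in place of Dbp the separation was not complete: the ratio of Arntl to Nr1d1 was 0.847, 0.570 and 2.16 in WT and 1.22 to 2.33 in the other 9. WT replicate 3, with the lowest Per1, Cry2, Ciart and Nr1d1 of its genotype and the highest Arntl and Per3, thus lay with the other genotypes by one ratio and with WT by the other. No library carries a time of dissection, so a difference in time of day and a difference in genotype cannot be told apart from these ratios.

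No member passed an adjusted p of 0.05 in any of the 9 comparisons by edgeR's quasi-likelihood test. The share of all tested genes that did was 0.0536% in 5xFAD against WT, 0% in p75NTRko against WT, 0% in 5xFAD/p75NTRko against WT, 0.0383% in 5xFAD/p75NTRko against 5xFAD, 0% in 5xFAD/p75NTRko against p75NTRko, 0.0383% in the interaction, 0.0153% in transgene carriers against non-carriers, 0.0842% in receptor-labelled against other libraries and 0.0995% in the test of any genotype difference. DESeq2, the other tool run, called 1 member (Nr1d2) in 5xFAD against WT and 0 in the other 8 comparisons. For size of test, counts were simulated with the same depths and a common biological coefficient of variation of 13.8% for every gene. In 5xFAD against WT 80.8% of 198 genes changed 2-fold were recovered and 18.2% of 198 genes changed 1.5-fold. The members' own values ran from 11.5% for Per3 to 24.7% for Ciart, with Arntl at 17.8% and Dbp at 15.9%. Recovery at these values was not simulated. In the test of any genotype difference, 7 of the 10 members had an unadjusted p under 0.05 (Arntl 0.0385, Per2 0.0197, Cry1 0.00479, Ciart 0.0265, Nr1d1 0.0416, Nr1d2 0.00897 and Dbp 0.00647 by edgeR), against 10.4% of all tested genes, and the smallest adjusted p was 0.275, for Cry1.

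In 5xFAD against WT, 9 of the 10 members had a negative fold change and Arntl a positive one, where 50.4% of all tested genes were negative. The median log2 fold change of the members was -0.39, against 0.00 over all tested genes. At an unadjusted p under 0.05 by edgeR, 4 members were lower (Per2, Cry1, Nr1d2 and Dbp; 6.14% of all genes) and 1 was higher (Arntl; 7.73%), and all libraries of 1 genotype lay below the other without overlap for 5 members (9.02% of all genes) and above it for 1 (10.5%). The log2 fold changes of the other 5 were -0.39 for Per1, -0.25 for Per3, -0.14 for Cry2, -0.40 for Ciart and -0.28 for Nr1d1. The genotypes of this comparison also differed without overlap in Xist, and so in sex as read from RNA, and in the summed levels of 3 marker lists. Of the hippocampal neuron markers 4 of 9 were higher at this p, and of the thalamus and habenula markers 5 of 12 were lower. The 12 choroid plexus markers all had a negative fold change with a median of -1.36 on the log2 scale, 0 of them past this p, and their part in the values of the members was not tested. With the Xist class as a term, which only the p75NTRko libraries separate from genotype, 1 member was lower and 0 higher at an unadjusted p under 0.05. With the hippocampal neuron marker level as a covariate, both counts were 0. With the thalamus and habenula marker level as a covariate, 3 were lower and 1 higher. The count over all tested genes in either direction fell as well. It was 1812 in the main fit, 624 with the Xist class, 772 with the hippocampal neuron markers and 1399 with the thalamus and habenula markers.

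In p75NTRko against WT, 9 of the 10 were again negative (50.1% of all genes) and Arntl positive, with a median of -0.48 against 0.00 over all genes. At an unadjusted p under 0.05 by edgeR, 7 members were lower (Per2, Cry1, Cry2, Ciart, Nr1d1, Nr1d2 and Dbp; 6.16% of all genes) and 1 was higher (Arntl; 5.33%). Libraries did not overlap for 4 lower members (8.5% of all genes) and for 1 higher (7.93%). Ciart had the largest difference, its log2 fold change being -0.93 (SE 0.313, adjusted p = 0.342), although p75NTRko replicate 3 was above the lowest WT library. Next in size came Cry1, Dbp and Per2, with the values given above, then Nr1d1 at -0.56 (SE 0.225, adjusted p = 0.380) and Cry2 at -0.40 (SE 0.148, adjusted p = 0.367). Per1 was at -0.34 and Per3 at -0.24. Marker lists differed here too. Of the thalamus and habenula markers 8 of 12 were lower at this p, with a median of -1.15. Of the hippocampal neuron markers 6 of 9 were higher, with a median of 0.67. The summed levels of both lists did not overlap between these genotypes, and Xist was low in p75NTRko replicates 2 and 3. The count of 7 lower members was 3 without WT replicate 1, the library with the highest Cry1, Cry2, Nr1d1, Nr1d2 and Dbp of all 12, and 3 to 8 over the 12 fits that each left out a library. With the hippocampal neuron marker level as a covariate the count of lower members was 0. Over all genes in either direction, 1501 passed this p in the main fit and 577 with that covariate. Without WT replicate 1 it was 1152 genes, and 971 to 2484 over the 12 fits. Arntl was not past this p without WT replicate 2, 5xFAD replicate 1 or 2, or any of the p75NTRko libraries.

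In 5xFAD/p75NTRko against WT the members did not lean one way to the same extent: 6 of 10 were negative (49.2% of all genes) and the median was -0.17. At an unadjusted p under 0.05 by edgeR, 5 were lower (Per2, Per3, Cry1, Nr1d2 and Dbp; 4.44% of all genes) and Arntl was higher (5.51%), with no overlap between libraries for 3 lower (5.53%) and 1 higher (5.95%). The log2 fold changes of Per1, Cry2, Ciart and Nr1d1 were -0.01, 0.01, 0.06 and 0.11, and the sign of each turned when 1 of several libraries was left out. The count of 5 lower members was 0 without 5xFAD/p75NTRko replicate 2, 1 without 5xFAD/p75NTRko replicate 1 and 2 without WT replicate 1. Over all genes in either direction, 600, 1326 and 1312 passed this p in these fits, against 1300 in the main fit. The plot of fold changes against WT sets the 3 comparisons side by side.

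**Figure D2:**
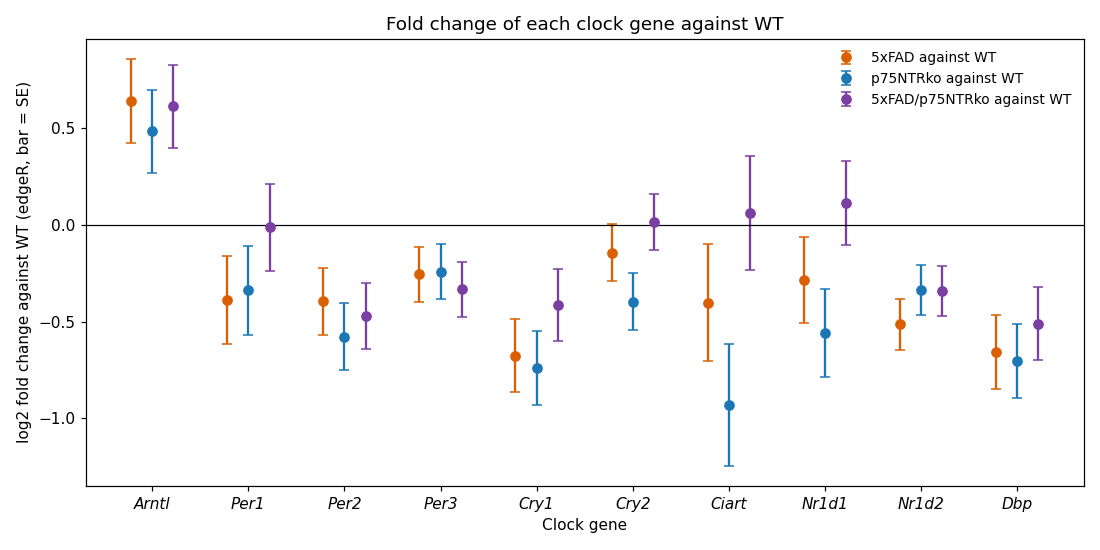
Log2 fold change of each clock gene against WT in 5xFAD, p75NTRko and 5xFAD/p75NTRko libraries, as fitted by edgeR, with bars for the SE. All 3 comparisons use the same 3 WT libraries. Arntl lies at 0.48 to 0.64, Cry1 at -0.74 to -0.41 and Dbp at -0.70 to -0.51, while Ciart runs from -0.93 in p75NTRko to 0.06 in 5xFAD/p75NTRko.

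The combined genotype was set against each single one. Against p75NTRko, 3 members were higher at an unadjusted p under 0.05 (3.6% of all genes) and their libraries did not overlap (6.54%): Ciart, whose log2 fold change was 0.99 (SE 0.314, adjusted p = 0.673), Nr1d1, at 0.67 (SE 0.225, adjusted p = 0.702), and Cry2, at 0.41 (SE 0.149, adjusted p = 0.711) by edgeR. For Ciart the libraries were barely apart, at 13.83 CPM in p75NTRko replicate 3 and 13.84 in 5xFAD/p75NTRko replicate 2. The other 7 members lay between -0.09 (Per3) and 0.33 (Per1), with Arntl at 0.13 and Dbp at 0.19. Without WT replicate 2 and 5xFAD/p75NTRko replicate 3 together, an alternative chosen after seeing the data, 1 member was higher at this p. There 1171 of all genes passed it in either direction, against 861 in the main fit. The oligodendrocyte markers were lower here without overlap in their summed level, 9 of 12 of them at this p (2.99% of all genes), and their part in the values of the members was not tested. Against 5xFAD, 0 members had an unadjusted p under 0.05 (5.08% of all genes). Cry2 (log2 fold change 0.16) and Nr1d1 (0.40) were higher there without overlap between libraries, as were 5.18% of all genes, and the others lay between -0.08 (Per3) and 0.46 (Ciart). Without 5xFAD/p75NTRko replicate 3 alone, Per1 was at -0.08 against p75NTRko and -0.03 against 5xFAD, and Dbp at -0.01 and -0.05. Ciart was then at 0.58 and 0.06 in the same order. Against 5xFAD, 1 member was past this p without WT replicate 3, 5xFAD replicate 2 or 5xFAD/p75NTRko replicate 1. Of all genes 729, 534 and 1006 were past it in these fits, against 664 in the main fit.

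The interaction asked whether the difference between receptor labels was the same with and without the transgenes. It was positive for 9 of 10 members (50.3% of all genes) and negative for Arntl, with a median of 0.63 against 0.00 over all genes. At an unadjusted p under 0.05 by edgeR, 7 members were positive, against 5.19% of all genes: Ciart 1.40 (SE 0.436, adjusted p = 0.389), Cry1 1.002 (SE 0.270, adjusted p = 0.336), Nr1d1 0.96 (SE 0.316, adjusted p = 0.413), Dbp 0.85 (SE 0.272, adjusted p = 0.402), Per1 0.72 (SE 0.324, adjusted p = 0.527), Cry2 0.55 (SE 0.209, adjusted p = 0.480) and Nr1d2 0.51 (SE 0.184, adjusted p = 0.446). Per2 was at 0.50 (adjusted p = 0.539), Per3 at 0.16 (adjusted p = 0.821) and Arntl at -0.51 (adjusted p = 0.597). In these 7 genes both single genotypes had a mean below WT, and the mean of the combined genotype was above that of p75NTRko in 6, with Nr1d2 at 220.8 CPM against 221.3. The markers of hippocampal neurons were lowest in WT and next lowest in 5xFAD/p75NTRko, and with their level as a covariate the count was 0. The thalamus and habenula markers were positive too, 7 of 12 of them at this p with a median of 1.504, and with their level as a covariate the count was 7. The oligodendrocyte markers were negative, 8 of 12 at this p (4.13% of all genes) with a median of -0.51, and their part was not tested. Xist was high in all WT and 5xFAD/p75NTRko libraries and, among the single genotypes, only in p75NTRko replicate 1. The interaction sets WT and 5xFAD/p75NTRko against the single genotypes, so it can hardly be told apart from the Xist class. With the Xist class as a term the count of members was 1, and without the 2 libraries named above it was 4. Over all genes in either direction, 1218 passed this p in the main fit. In these alternatives, in the order given, 495, 1274, 520 and 918 did.

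Averaged over backgrounds, transgene carriers against non-carriers had Arntl higher by 0.39 (SE 0.152, adjusted p = 0.430) and Nr1d2 lower, at -0.26 (SE 0.0920, adjusted p = 0.381), on the log2 scale. These were the members past an unadjusted p of 0.05, 1 higher (5.99% of all genes) and 1 lower (4.26%). In receptor-labelled against other libraries, Per2 alone among the members passed it, at -0.33 on the log2 scale (SE 0.123, adjusted p = 0.704), where 3.71% of all genes were lower. These counts hang on single libraries: Arntl was not past this p in carriers without 5xFAD replicate 1, and 5 members were lower in receptor-labelled libraries without 5xFAD/p75NTRko replicate 3. In that last fit 1313 of all genes passed this p in either direction, against 823 in the main fit. By genotype means, WT was highest for 6 members (30.5% of all genes) and lowest for 1, Arntl (31.1%), while p75NTRko was lowest for 6 (24.2%).

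How far the members varied together across the 12 libraries was measured as Pearson's r of log2 CPM with a two-sided permutation test of 100000 resamples and Benjamini-Hochberg adjustment over the 45 pairs. Arntl had a negative r with each of the other 9 members, from -0.64 to -0.15 with a median of -0.39, and 1 of the 9 passed the adjusted threshold. Negative values were common: of 8954 genes with a mean of at least 10 CPM, 52.1% had a negative r with Arntl, with a median of -0.03, and 8.57% had an r at or below that of Nr1d2. The pair that passed was Arntl and Nr1d2, with r = -0.64 (permutation p = 0.0102, adjusted p = 0.0383) and Spearman's rho = -0.74 (permutation p = 0.00774, adjusted p = 0.0498). Without WT replicate 2 and 5xFAD replicate 1, the 2 libraries farthest from the median of Arntl, its r was -0.51 and no longer passed. With 1 library left out it ran from -0.76 to -0.60 and did not pass in 6 of the 12 cases: without WT replicate 1 or 2, 5xFAD replicate 1 or 2, p75NTRko replicate 1 or 5xFAD/p75NTRko replicate 1. Arntl with Dbp gave r = -0.35 (adjusted permutation p = 0.356) and rho = -0.43 (adjusted permutation p = 0.285). In deviations from the genotype means, Arntl was positive with 5 of the 9, among them Dbp (0.37), Per3 (0.35), Cry1 (0.16) and Per2 (0.14), and at -0.21 with Nr1d2.

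Among the other 9 members, 32 of 36 pairs (88.9%) had a positive r, against 49.8% of all pairs of genes with a mean of at least 10 CPM, and the median r was 0.55, against 0.00. Of the 36, 13 passed the adjusted threshold by r and 6 by rho. These 13 (36.1%) were the pairs with an r of at least 0.665, as were 3.46% of all pairs of genes. The closest pairs were Cry2 with Nr1d1 (r = 0.914, adjusted permutation p = 0.0009, rho = 0.965) and Per2 with Dbp (r = 0.906, adjusted permutation p = 0.00157, rho = 0.937), followed by Ciart with Nr1d1 (r = 0.870, adjusted permutation p = 0.00555, rho = 0.874). Their r in deviations from genotype means was 0.862, 0.849 and 0.781, and without the 2 libraries farthest from the median it was 0.848, 0.881 and 0.802. Nr1d2 with Dbp gave r = 0.798 (adjusted permutation p = 0.0273), Cry1 with Nr1d2 0.766 (adjusted permutation p = 0.0289) and Per2 with Per3 0.759 (adjusted permutation p = 0.0289). Per1 passed with Cry2 (0.665), Ciart (0.734), Nr1d1 (0.733) and Nr1d2 (0.724), and Ciart with Cry2 (0.761). Per2 with Nr1d2 (0.733) and Cry1 with Dbp (0.699) passed as well, while Per2 with Cry1 (0.636) and Ciart with Dbp (0.650) did not. Per3 was at -0.21 with Nr1d1 and -0.28 with Cry2 and, in deviations from genotype means, at -0.70 with Cry2. Genes of a library share its depth and its dissection, so these values describe the libraries. The permutation test exchanged all 12 libraries regardless of genotype, so its p-values also take in differences between genotype means.

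**Figure D3:**
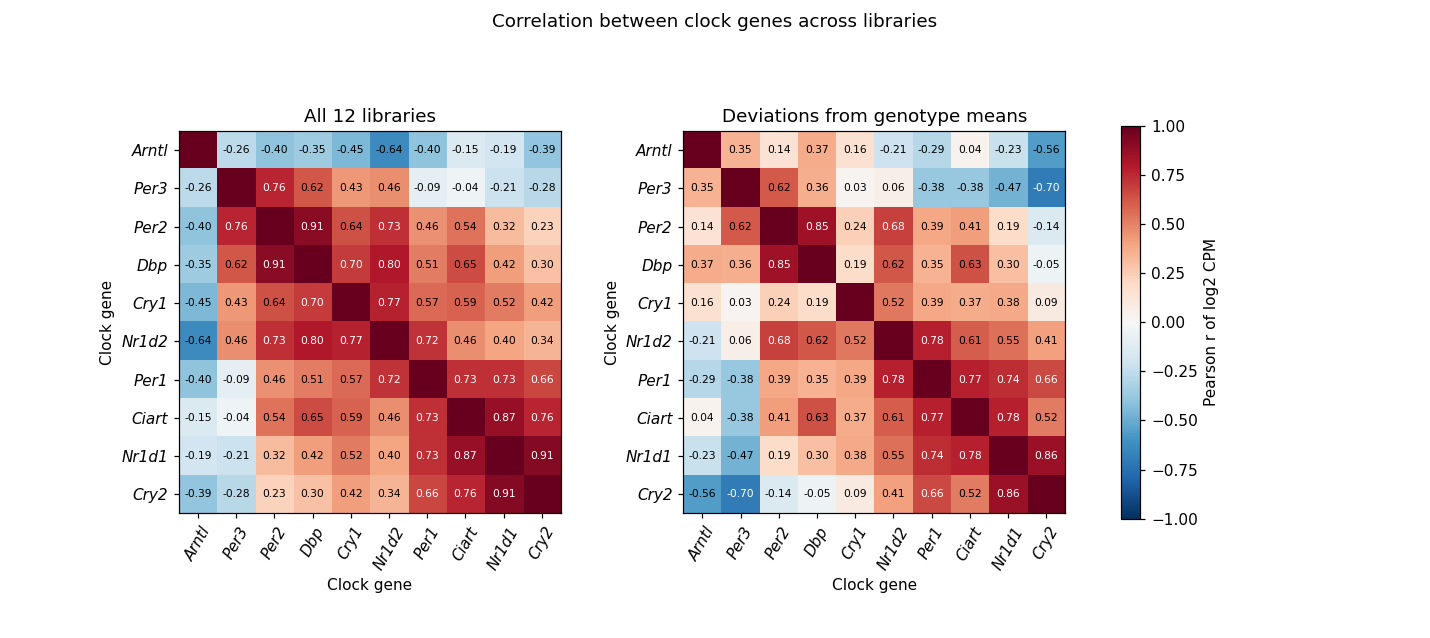
Pearson's r of log2 CPM between clock genes over all 12 libraries (left) and in deviations from genotype means (right), from blue (-1) to red (1). Arntl is negative with all 9 others on the left and positive with 5 of them on the right, while Per2 with Dbp (0.906 and 0.849) and Cry2 with Nr1d1 (0.914 and 0.862) are strongly positive in both.

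**Figure D4:**
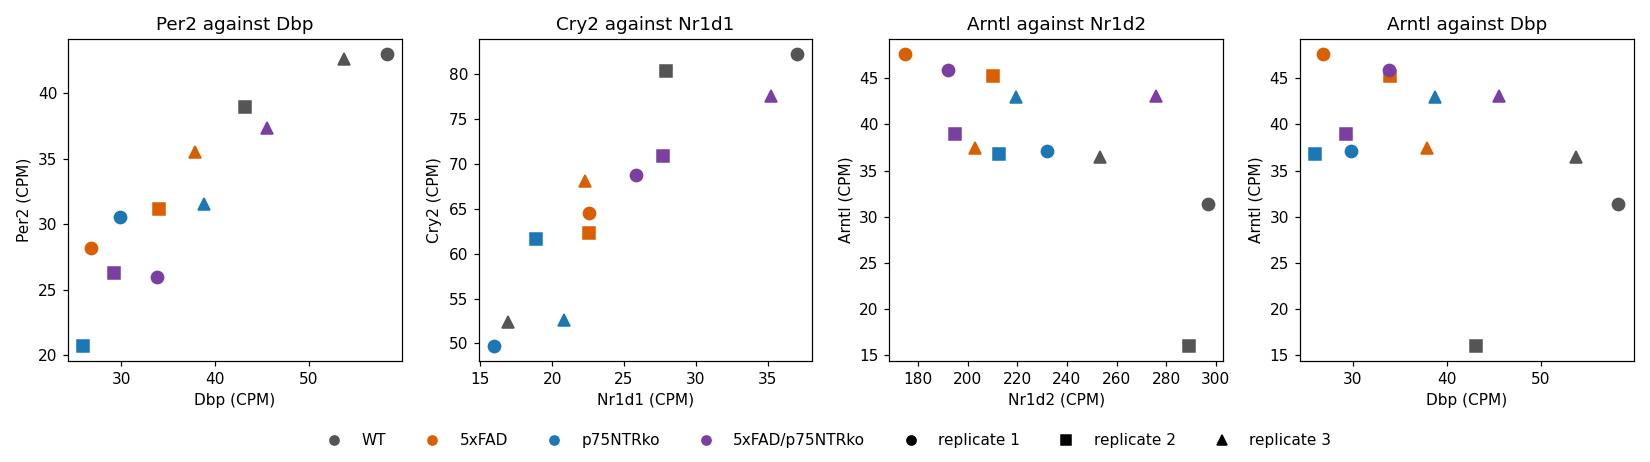
Levels in each library (CPM, linear axes that do not start at 0) for Per2 against Dbp, Cry2 against Nr1d1, Arntl against Nr1d2 and Arntl against Dbp. Colours are genotypes and symbols are replicate numbers. The first 2 panels rise together over all genotypes, and in the last 2 the WT library with 15.9 CPM of Arntl stands apart.

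Ranked among 8954 genes with a mean of at least 10 CPM, Dbp was the closest of all to Per2 and Per2 the closest of all to Dbp. In order of r with Dbp, Nr1d2 had rank 23, Cry1 134, Ciart 255, Per3 338, Per1 849, Nr1d1 1372, Cry2 2236 and Arntl 7226, so the members were spread over the ranks. A high r was common for some members: Cry2 (0.665) had rank 851 in order of r with Per1. The genes outside the members closest to Dbp over the 12 libraries were Zmym2 (r = 0.873), Ulk1 (0.873), Abcc5 (0.869), Tnk2 (0.866) and Serf1 (0.861). Those closest to Arntl had higher values and included no clock gene: N4bp2l2 (r = 0.977), Gtf2a1 (0.960), Taf1d (0.957), Mospd2 (0.952) and H1f0 (0.947). Both sets were picked as the highest of 8945 genes and are given as a description without a test.

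Of 26 other clock genes and clock modifiers, 24 were tested and 0 passed an adjusted p of 0.05 in any comparison by edgeR. At an unadjusted p under 0.05, 2 were higher and 3 lower in 5xFAD against WT (8.33% and 12.5% of the 24, against 7.73% and 6.14% of all genes), and 0 higher and 9 lower in p75NTRko against WT (0% and 37.5%, against 5.33% and 6.16%), with medians of -0.06 and -0.11. Clock, the partner of Arntl, averaged 122 CPM ± 9.39 in WT, 139.6 ± 2.18 in 5xFAD, 124 ± 2.09 in p75NTRko and 127 ± 4.08 in 5xFAD/p75NTRko (SD, n = 3 each), and no library was outside 111 to 142 CPM. Tef and Hlf, the PAR bZIP relatives of Dbp, were at 991 CPM ± 251 and 391 ± 86.4 in WT and at 734 to 789.5 and 269 to 337 as means of the other genotypes. By library, Tef was at 745 to 1246 CPM in WT, which overlapped each of the other genotypes (631 to 858). Hlf was at 306 to 479 CPM in WT. This overlapped 5xFAD (316 to 377) and 5xFAD/p75NTRko (242 to 430) but not p75NTRko (261 to 276). Rora, the ROR receptor that activates Arntl, had the smallest p of the list in the test of any genotype difference (adjusted p = 0.116 by edgeR). It was at 177 to 189 CPM in WT, 98.7 to 116 in 5xFAD, 80.2 to 92.3 in p75NTRko and 92.0 to 223 in 5xFAD/p75NTRko, with a log2 fold change against WT of -0.75 (SE 0.211, adjusted p = 0.213) in 5xFAD and -1.10 (SE 0.213, adjusted p = 0.120) in p75NTRko. Rorb, the related receptor, was second (adjusted p = 0.248), at 38.9 CPM ± 7.69 in WT, 39.0 ± 3.65 in 5xFAD, 25.2 ± 3.24 in p75NTRko and 41.6 ± 7.32 in 5xFAD/p75NTRko (SD, n = 3 each). The thalamus and habenula markers given above were also high in WT and low in 5xFAD and p75NTRko. Among the 5xFAD/p75NTRko libraries they were high in replicate 1 alone. Rorb differed from them in 5xFAD, where its mean was near that of WT. The part of these markers in the Rora and Rorb values was not tested.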

How the data were processed

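The submitters deposited a table of raw counts per gene symbol, 1 column per library, for 12 hippocampal libraries. Per the labels' protocols, Trizol RNA was made into QuantSeq 3′ libraries in the forward orientation. Per the submitters' processing notes the tools were FastQC, HISAT2, SAMtools, HTSeq and edgeR and the build mm10. Neither versions nor the annotation nor the strand setting of the counting are given in the sources used here. The 5 summary lines were left out: 28.9% to 33.5% of reads were in no feature, and 32.2% to 38.5% were assigned to genes. Counts of 3 correspond to 0.446 to 0.690 CPM, and limits from counts cover counting error only.

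Counts were analysed with edgeR 4.0.16 in R 4.3.3 (filterByExpr by genotype with a minimum of 10 counts, TMM factors of 0.975 to 1.03, glmQLFit with a mean per genotype over all 12 libraries, Benjamini-Hochberg over 13065 genes, threshold 0.05), in 9 comparisons. For log2 CPM a prior count of 2 was added. The SE of a fold change is its size divided by the square root of F. All pairs of libraries differed by more than counting noise (lowest chi-square over its degrees of freedom 2.97). The fit was tested on simulated data for 5xFAD against WT, where 2.44% and 2.70% of calls were false at 2-fold and 1.5-fold. DESeq2 1.42.0, other scalings and filters, fewer genotypes, a replicate block, the Xist class, marker scores and each library left out were the alternatives. Correlations used scipy 1.17.1. Promoters came from RefSeq (GRCm38.p6), and overlaps from a GENCODE annotation of the mm10 assembly.

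All 10 members are named in each comparison. Of the lists of other clock genes, immediate early genes and glucocorticoid-induced genes, genes past the threshold were to be named, and otherwise the 2 with the smallest p in the test of any genotype difference. The 5 genes closest to Arntl and to Dbp are named. Clock, Tef, Hlf, Sphk2 and Thra were chosen outside this rule. The members and lists were chosen with earlier results of these data known.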

Additional observations from a re-analysis of the deposited data

How the results depend on the processing

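Over 12 fits that each left out a library and up to 12 other settings, the count of members past an adjusted p of 0.05 stayed at 0 in 7 of the 9 comparisons. In 5xFAD against WT it was 1 (Nr1d2) with DESeq2 (log2 fold change -0.51, adjusted p = 0.0413), without 5xFAD/p75NTRko replicate 3 (-0.51, adjusted p = 0.0375) and with the immediate early gene score as a covariate (-0.54, adjusted p = 0.0338), so that leaving out 1 library gave 0 to 1. The adjusted p of Nr1d2 there ran from 0.0338 to 0.949 over all settings. In transgene carriers against non-carriers it was 1 (Nr1d2, -0.35, adjusted p = 0.0452, range 0.0452 to 0.672) without WT replicate 2 and 5xFAD/p75NTRko replicate 3. Over all genes, DESeq2 called 102 in 5xFAD against WT where edgeR called 7. The hippocampal neuron and early gene scores and the pair of libraries left out together were chosen after seeing the data.

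Signs of log2 fold changes turned in the following cases. With the Xist class as a term they were Per3 0.19 in 5xFAD against WT, 0.0382 in p75NTRko against WT and -0.56 in the interaction, Arntl 0.0827 in 5xFAD/p75NTRko against 5xFAD and Per2 -0.0305 in 5xFAD/p75NTRko against p75NTRko. With the hippocampal neuron score as a covariate they were Per1 0.14, Cry2 0.17, Ciart 0.25 and Nr1d1 0.36 in 5xFAD against WT, Per1 0.26 and Nr1d1 0.17 in p75NTRko against WT, Per1 0.22 in 5xFAD/p75NTRko against WT, -0.0378 in 5xFAD/p75NTRko against p75NTRko and 0.0495 in carriers, Nr1d1 0.14 in receptor-labelled libraries, and Per1 -0.17 and Nr1d1 -0.0714 in the interaction. With the thalamus and habenula score they were Cry2 -0.0535, Ciart -0.0339 and Nr1d1 -0.0062 in 5xFAD/p75NTRko against WT, Nr1d2 0.0265 in 5xFAD/p75NTRko against p75NTRko and Per1 -0.0916 in receptor-labelled libraries. With the immediate early gene score they were Cry2 -0.0234 and Ciart -0.0914 in 5xFAD/p75NTRko against WT and Per1 -0.0478 in receptor-labelled libraries. With the replicate block it was Ciart -0.00187 in 5xFAD/p75NTRko against WT.

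Leaving out a library, or the pair named above, turned signs over these ranges. In 5xFAD against WT Nr1d1 was at -0.54 to 0.0027 (the latter without WT replicate 1). In 5xFAD/p75NTRko against WT the ranges were -0.42 to 0.17 for Per1, -0.17 to 0.13 for Cry2, -0.36 to 0.27 for Ciart and -0.14 to 0.40 for Nr1d1. Against 5xFAD they were -0.12 to 0.0456 for Arntl, -0.0312 to 0.57 for Per1, -0.27 to 0.0225 for Per2, -0.0217 to 0.27 for Nr1d2 and -0.0565 to 0.28 for Dbp. Against p75NTRko they were -0.0859 to 0.51 for Per1, -0.10 to 0.22 for Per2, -0.23 to 0.0723 for Per3, -0.20 to 0.087 for Nr1d2 and -0.0200 to 0.38 for Dbp. In carriers Per1 was at -0.23 to 0.0582, and in receptor-labelled libraries Per1 was at -0.18 to 0.12 and Nr1d1 at -0.20 to 0.0628. The cause was not tested. Arntl, Per2, Cry1, Nr1d2 and Dbp kept their sign against WT in all 24 settings. The count of Arntl correlations past the threshold was 0 to 2 when 1 library was left out (2 without 5xFAD/p75NTRko replicate 3, adding Per1 at r = -0.79) and 0 without the 2 libraries farthest from its median. The r of Arntl with Ciart was -0.285 to 0.0894 when 1 library was left out (0.0894 without WT replicate 2) and 0.118 without those 2 libraries. In deviations from genotype means, r of Arntl was 0.14 with Per2, 0.35 with Per3, 0.16 with Cry1, 0.0376 with Ciart and 0.37 with Dbp.

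With the replicate number as a block, 0 members passed in each comparison. No pairing by number was seen in deviations of log2 CPM from genotype means, correlated between libraries of different genotypes. Same-numbered libraries were at -0.42 to 0.14 (median -0.018) and libraries of different number at -0.22 to 0.34 (median 0.0014). Of the 12 libraries, 2 correlated best with their own number. With 3 libraries a genotype, most 1.5-fold differences would be missed at this depth and at the common spread, as the simulation gave.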

Other observations

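Genes that answer to neuronal activity and to glucocorticoids, both of which can act on Per1, were looked at beside the clock. None of 22 immediate early genes or 16 glucocorticoid-induced genes passed an adjusted p of 0.05 in any of the 9 comparisons by edgeR. At an unadjusted p under 0.05, 0 immediate early genes differed in 5xFAD against WT, 3 were higher in p75NTRko against WT (13.6% of the 22, against 5.33% of all tested genes) and 2 were higher in 5xFAD/p75NTRko against WT (9.09%, against 5.51%). Jun, a subunit of AP-1, averaged 124 CPM ± 17.9 in WT, 139.4 ± 11.2 in 5xFAD, 163 ± 14.1 in p75NTRko and 159 ± 21.3 in 5xFAD/p75NTRko (SD, n = 3 each). Bdnf, a neurotrophin induced by activity, averaged 73.1 CPM ± 20.7 in WT and 88.7 to 100.8 as means of the other genotypes. Fos, chosen after its values were seen, was at 4.50 to 18.4 CPM in 11 libraries and at 33.9 in 5xFAD/p75NTRko replicate 3, the library with the highest Per1.

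Of the glucocorticoid-induced genes, 3 were higher and 1 lower in 5xFAD against WT (18.8% and 6.25% of the 16, against 7.73% and 6.14% of all tested genes) and 2 higher and 1 lower in p75NTRko against WT (12.5% and 6.25%, against 5.33% and 6.16%) at an unadjusted p under 0.05. The counts of 1 are at the share over all genes. Pdk4, a kinase that restrains pyruvate use, was at 0 to 0.498 CPM in WT, at or near the limit of measurement, and at 1.97 to 4.48 in 5xFAD/p75NTRko. Klf9, a transcription factor that glucocorticoids induce, averaged 572 CPM ± 29.7 in WT, 572 ± 19.1 in 5xFAD, 506 ± 23.7 in p75NTRko and 479 ± 23.9 in 5xFAD/p75NTRko (SD, n = 3 each).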
